A study of Homo sapiens with 12 samples.

Results

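The U1 and U2 small nuclear RNA arrays of HepG2, a human hepatocellular carcinoma cell line, were described through the ChIP-seq peaks of 3 histone marks. Members were all peaks that shared at least 1 bp with chr1:16800000-17300000, called the U1 window, or with chr17:41360000-41480000, called the U2 window, both in GRCh37. They numbered 199 of the 273822 peaks in the 3 lists. The U1 window, 500 kb long, held 144 of them: 39 H3K27ac peaks, 83 H3K4me1 peaks and 22 H3K4me3 peaks. The U2 window, 120 kb long, held 55: 12 H3K27ac peaks, 32 H3K4me1 peaks and 11 H3K4me3 peaks.

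The study profiled HepG2 cells, labelled as liver tissue with no treatment, in 12 libraries forming 4 groups of 3, 1 for each mark and 1 for controls. These controls are titled as input, but their antibody label names an anti-mouse IgG, so the kind of control is uncertain. Each mark has 1 peak list named as pooled replicates. No value belongs to a single library, so the depth and the spread between replicates are unknown and no test was made. Peaks were chosen by position, and the windows themselves were selected on the mark combinations and the relation of p to fold seen earlier in these lists. Every value below is therefore a description of 3 pooled lists.

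U1 and U2 are the RNA cores of small ribonucleoproteins of the spliceosome. U1 recognises the 5′ splice site of a new transcript and U2 pairs with the branch point. Their genes are short, have many near-identical copies, and are transcribed by RNA polymerase II with the snRNA-activating protein complex, SNAPc. H3K4me3 marks active promoters, H3K4me1 marks enhancers and the flanks of promoters, and H3K27ac marks active elements of both kinds. Reads from near-identical copies can be hard to place, and how the authors treated them is not given in the sources used here.

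The neighbours of the U1 genes were taken from RefSeq on GRCh38.p14, for their order only. Between CROCCP3 and CROCC on chromosome 1 that table lists 37 genes. They include 4 snRNA genes, in the order RNU1-1, RNU1-3, RNU1-4 and RNU1-2, all encoding U1. The others are 8 tRNA genes, 12 pseudogenes, 4 transcribed pseudogenes, 5 long non-coding RNA genes, 3 protein-coding genes and 1 microRNA gene. NBPF1 is among the protein-coding genes, and ESPNP and MST1L are among the transcribed pseudogenes. The U1 genes are thus spread among other genes. The table places RNU2-1, which encodes U2, on chromosome 17. A GRCh37 annotation was not used here, so no peak is assigned to a single gene.

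In the U1 window, peaks of the 3 marks merged into 77 regions that covered 102.0 kb, or 20.4% of the window. The fold enrichment of a peak is the pileup of reads at its summit over the background level the peak caller expected there. It ran from 1.57 to 103.9 for H3K27ac with a median of 3.92, from 2.08 to 12.6 for H3K4me1 with a median of 3.72, and from 2.58 to 65.2 for H3K4me3 with a median of 9.14. Medians over the whole lists were 3.15, 3.42 and 13.3. Median widths were 620, 777 and 1301 bp, against 723, 696 and 1536 bp over the lists. Fold values are compared within a list only, because the lists are not on a common scale. Peaks did not fill the window evenly: the longest stretch without a peak of any mark was chr1:17099402-17176655 (77.3 kb), followed by chr1:16888184-16921008 (32.8 kb) and chr1:17254977-17282146 (27.2 kb).

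**Figure D1:**
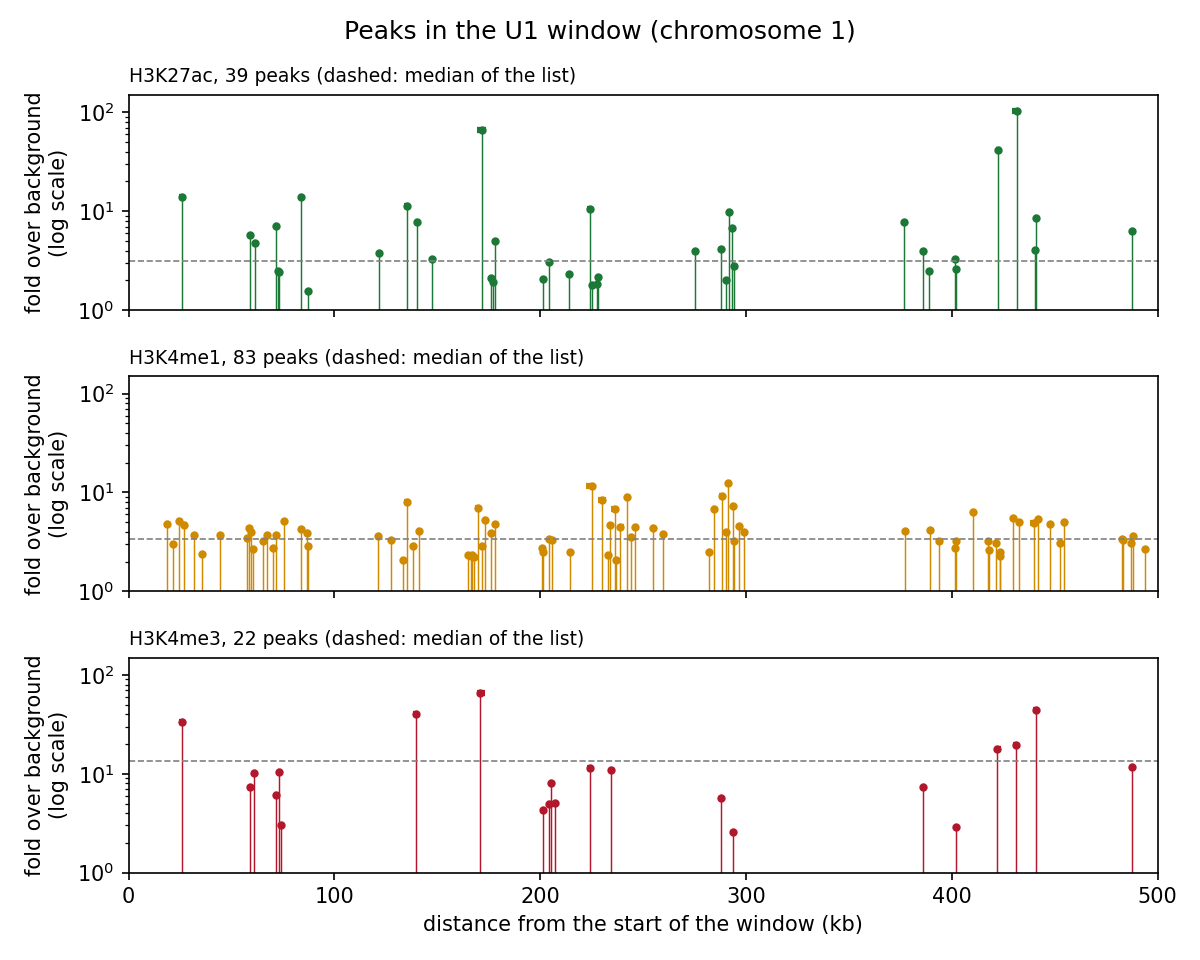
Peaks of H3K27ac, H3K4me1 and H3K4me3 in the U1 window, 1 panel per mark. The x axis is the distance from the window start in kb and the y axis the fold over background on a log scale; points are summits, thick bars are peak widths and the dashed line is the median of the whole list. The H3K27ac panel has its highest point, 103.9, in the right part of the window, and no panel has a peak in the 77.3 kb stretch described in the text.

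Region by region, the U1 window held all 3 marks in 16 of 77 regions (20.8%, 95% Wilson interval 13.2 to 31.1), where the share over all 169061 merged regions of the lists was 10.0%. The interval covers counting error only and treats neighbouring regions as independent. H3K4me1 stood alone in 38 regions (49.4%), against 66.5% of all regions. Both H3K27ac and H3K4me1 without H3K4me3 were found in 14 regions (18.2%; all regions 16.6%). The remaining 9 comprised 3 with H3K27ac only (all regions 3.35%), 2 with H3K27ac and H3K4me3 (0.451%), 2 with H3K4me1 and H3K4me3 (2.50%) and 2 with H3K4me3 only (0.547%). By share, regions with all 3 marks were thus more frequent than in the lists as a whole, and regions with H3K4me1 alone less frequent, with no test of either difference.

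Counted by peak, 20 of 39 H3K27ac peaks in the U1 window overlapped an H3K4me3 peak (51.3%; whole list 31.7%) and 32 of 39 overlapped an H3K4me1 peak (82.1%; whole list 87.4%). Neither other mark overlapped 3 of the 39 (7.69%; whole list 8.52%). Of the 83 H3K4me1 peaks, 38 overlapped H3K27ac (45.8%; whole list 33.4%), 30 overlapped H3K4me3 (36.1%; whole list 18.9%) and 38 overlapped neither (45.8%; whole list 61.6%). Of the 22 H3K4me3 peaks, 18 overlapped H3K27ac (81.8%; whole list 77.5%) and 18 overlapped H3K4me1 (81.8%; whole list 92.7%), while 2 overlapped neither (9.09%; whole list 3.78%). Overlap with H3K4me3 is where the H3K27ac and H3K4me1 peaks of this window lay furthest from their whole lists.

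The 16 regions with all 3 marks covered 44.2 kb. Where a region held several peaks of a mark, the fold and background given for it are those of the peak with the highest fold. The strongest by H3K27ac was chr1:17229173-17233763, with a fold of 103.9 for H3K27ac, 5.49 for H3K4me1 and 19.5 for H3K4me3. Its H3K27ac value ranked 3 of 66513 peaks on chromosomes 1 to 22 and X. No H3K4me1 peak lay at its H3K27ac or H3K4me3 summit: the region's 2 H3K4me1 peaks were elsewhere in it.

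The second strongest and widest of the 16 was chr1:16968357-16973498, with folds of 66.6 for H3K27ac, 7.01 for H3K4me1 and 65.2 for H3K4me3. Both promoter-associated marks were high there, and its H3K27ac and H3K4me3 peaks were the widest of their marks in the window, at 4204 and 3854 bp. The third, chr1:17220693-17223994, had folds of 42.0, 3.08 and 17.7, so its H3K27ac was high beside a low H3K4me1 value.

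Other regions with all 3 marks had an H3K4me3 fold well above the median of its list beside a moderate H3K27ac fold. The folds of H3K27ac, H3K4me1 and H3K4me3 at chr1:17238247-17242944 came to 8.58, 5.37 and 44.6. At chr1:16937704-16941449 they were 7.76, 4.07 and 39.8, and at chr1:16823299-16828434 they were 13.9, 5.21 and 33.4. In each of these regions the strongest H3K27ac summit and the H3K4me3 summit lay outside every H3K4me1 peak. The first of them had a weaker H3K27ac peak, chr1:17240043-17240444 with a fold of 4.09, whose summit an H3K4me1 peak covered.

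Elsewhere H3K4me1 stood well above the median of its list, 3.42. At chr1:17022291-17025820 H3K27ac, H3K4me1 and H3K4me3 had folds of 10.5, 11.7 and 11.5, and at chr1:17092848-17093716 of 6.70, 7.37 and 2.58. At both, an H3K4me1 peak covered the H3K27ac and the H3K4me3 summit. The H3K4me1 value at the first ranked 689 of 182592 in its list, a far higher place than the H3K27ac and H3K4me3 peaks of that region held in theirs. Over the 16 regions, an H3K4me1 peak covered the summit of the strongest H3K27ac peak in 7 and that of the H3K4me3 peak in 7. Counting every H3K27ac peak of these regions, 9 of 18 summits were covered, in 8 of the 16 regions. The same count over all regions with all 3 marks was not made, so whether these shares are usual is unknown.

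The remaining regions of the 12 with the highest H3K27ac fold had H3K27ac folds of 7.08 or less. H3K27ac, H3K4me1 and H3K4me3 folds were 7.08, 3.73 and 6.08 at chr1:16869742-16872118, and 6.38, 3.62 and 11.7 at chr1:17286187-17288355. They were 5.76, 4.40 and 7.40 at chr1:16858069-16859565, and 4.76, 2.71 and 10.2 at chr1:16860238-16861815. The last 4 regions outside the 12 had H3K27ac folds from 2.05 to 4.17.

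Among regions without H3K4me3, the highest H3K4me1 fold of the window was 12.6, in the peak chr1:17090721-17092476, which overlapped an H3K27ac peak of fold 9.90. The widest H3K4me1 peak, chr1:17028134-17031776, spanned 3643 bp with a fold of 8.42. H3K27ac without H3K4me3 reached 13.8 at chr1:16883322-16884273 and 11.3 at chr1:16933704-16936038, beside H3K4me1 folds of 4.23 and 7.93. The 38 regions with H3K4me1 alone covered 30.3 kb and had folds from 2.08 to 8.97, with a median of 3.44 and a median width of 630.0 bp. Their median width was slightly below the list median of 696 bp, and their median fold was close to the list median of 3.42. The whole list also holds H3K4me1 peaks that overlap other marks, so the 2 sets are unlike. The median gap between neighbouring peaks was 4.29 kb for H3K27ac, 1.72 kb for H3K4me1 and 8.73 kb for H3K4me3.

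In the U2 window the peaks merged into 30 regions that covered 47.2 kb, or 39.3% of the window. H3K27ac folds ran from 1.68 to 47.3 with a median of 11.1, H3K4me1 folds from 1.58 to 14.1 with a median of 3.37, and H3K4me3 folds from 1.62 to 48.9 with a median of 12.8. The H3K27ac median was thus above that of its list, and the other medians were close to theirs. Median widths were 1498 bp for H3K27ac, 675 bp for H3K4me1 and 1065 bp for H3K4me3, so the H3K27ac peaks were wider than those of their list (723 bp) and the H3K4me3 peaks narrower (1536 bp). The longest stretch without any peak was chr17:41422760-41433717 (11.0 kb).

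**Figure D2:**
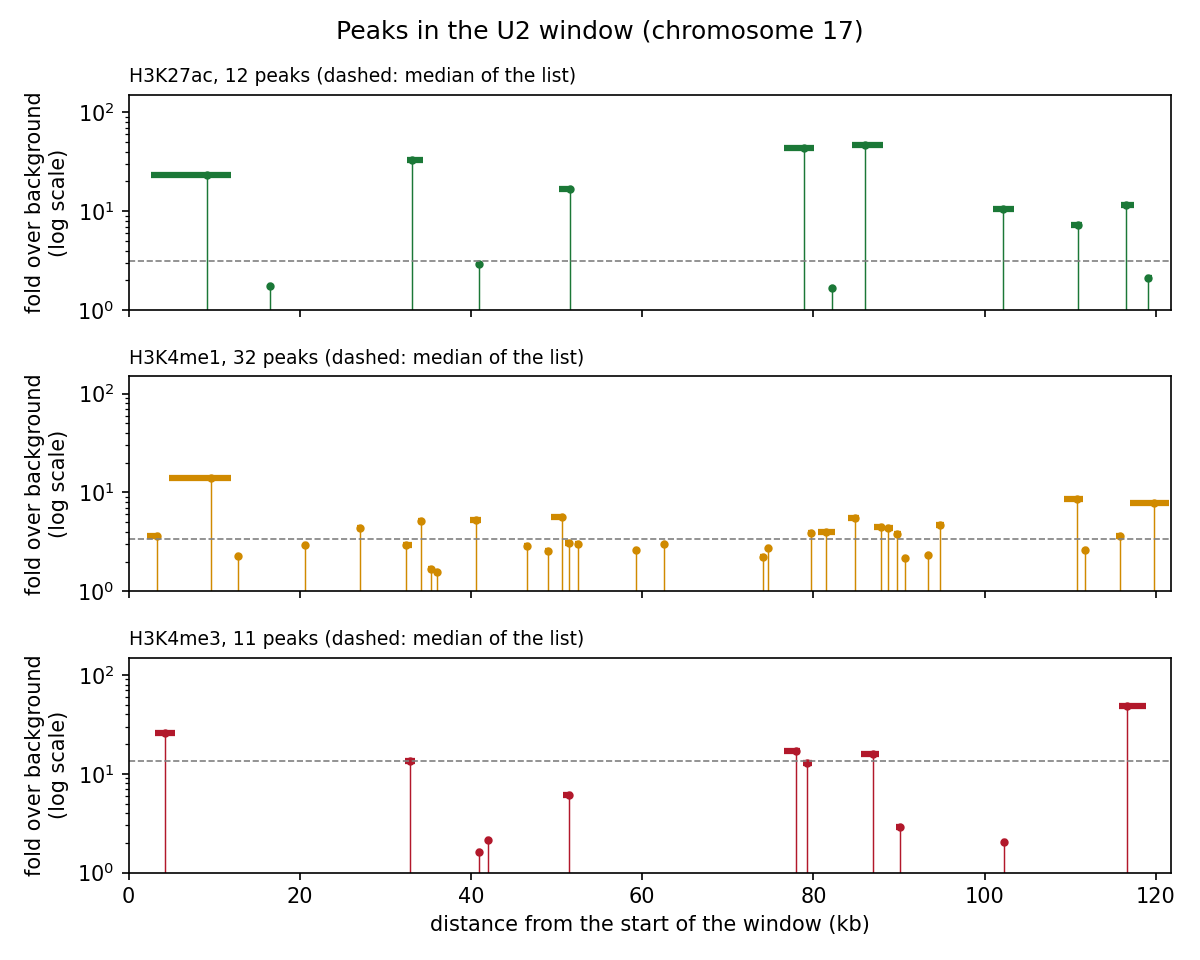
Peaks of H3K27ac, H3K4me1 and H3K4me3 in the U2 window, 1 panel per mark. The x axis is the distance from the window start in kb and the y axis the fold over background on a log scale; points are summits, thick bars are peak widths and the dashed line is the median of the whole list. H3K27ac reaches 47.3 and H3K4me3 48.9, while the H3K27ac and H3K4me3 peaks near 40 kb from the start lie below the dashed lines of their lists.

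All 3 marks were present in 7 of the 30 U2 regions (23.3%, 95% Wilson interval 11.8 to 40.9; all regions 10.0%), which together covered 29.9 kb. H3K4me1 alone was found in 17 (56.7%; all regions 66.5%). The other 6 comprised 2 with H3K27ac and H3K4me1 (6.67%; all regions 16.6%) and 1 of each other combination (3.33% each). Over all regions, H3K27ac alone made up 3.35% and H3K27ac with H3K4me3 0.451%. H3K4me1 with H3K4me3 made up 2.50% and H3K4me3 alone 0.547%. By peak, 8 of 12 H3K27ac peaks overlapped H3K4me3 (66.7%; whole list 31.7%) and 10 overlapped H3K4me1 (83.3%; whole list 87.4%). Of 32 H3K4me1 peaks, 14 overlapped H3K27ac (43.8%; whole list 33.4%) and 11 overlapped H3K4me3 (34.4%; whole list 18.9%). Within 1 Mb on either side of the window these H3K4me1 shares were 47.1% and 28.8%, so the overlap with H3K27ac was no higher than nearby. There, 39.1% of H3K27ac peaks overlapped H3K4me3. Of 11 H3K4me3 peaks, 9 overlapped H3K27ac (81.8%), near the 77.5% of the list, and 8 overlapped H3K4me1 (72.7%; whole list 92.7%). An H3K4me1 peak covered the summit of the strongest H3K27ac peak in 3 of the 7 regions and that of the strongest H3K4me3 peak in 3. Counting every peak of these regions, 4 of 8 H3K27ac summits and 3 of 8 H3K4me3 summits were covered. As for U1, no count over all regions with all 3 marks stands beside these.

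The U2 region with the highest H3K27ac was chr17:41444078-41448220, with folds of 47.3 for H3K27ac, 5.47 for H3K4me1 and 15.9 for H3K4me3. Its neighbour chr17:41436541-41440073 had 43.3, 3.86 and 17. In both, neither the H3K27ac nor the H3K4me3 summit lay in an H3K4me1 peak. Towards the lower limit, chr17:41392024-41394395 had 32.9, 5.20 and 13.6, and chr17:41409338-41411802 had 16.9, 5.68 and 6.07. These 4 regions had H3K27ac folds above the list median of 3.15, and H3K4me3 values on both sides of the list median of 13.3.

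Broader regions lay at the limits of the window. At chr17:41362139-41371941 the H3K27ac, H3K4me1 and H3K4me3 folds reached 23.5, 14.1 and 25.7. Its H3K27ac peak was 9340 bp wide and its main H3K4me1 peak 7185 bp, the widest of either mark in the window, against list medians of 723 and 696 bp. At chr17:41475344-41481542, which crosses the upper limit, the folds were 11.6, 7.76 and 48.9. The seventh region, chr17:41399854-41401195, was unlike the rest: its folds were 2.91 for H3K27ac, 5.25 for H3K4me1 and only 1.62 for H3K4me3, yet its −log10 p values were the highest of each list relative to fold, as described further on.

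Outside the 7 regions, H3K27ac and H3K4me3 peaks were fewer. H3K27ac reached a fold of 10.5 at chr17:41460966-41463485, beside H3K4me3 at 2.03, and 7.28 at chr17:41469305-41471469, beside H3K4me1 at 8.64. At chr17:41449430-41450346, H3K4me1 and H3K4me3 overlapped with folds of 3.78 and 2.86. At chr17:41440480-41442537 H3K27ac was at 1.68 and H3K4me1 at 4.00, and H3K27ac stood alone at chr17:41376289-41376726 with a fold of 1.75. The 17 regions with H3K4me1 alone covered 8.83 kb, with folds from 1.58 to 4.68, a median of 2.63 and a median width of 432.0 bp. The H3K4me1-only regions of the U2 window therefore had a lower median fold than the whole H3K4me1 list. That list also holds peaks that overlap other marks, and its H3K4me1-only regions were not summarised apart.

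The peak lists give a −log10 p for each peak, the probability of the summit's pileup under a Poisson background. Over a whole list it rises with fold, and a cubic curve of log2 −log10 p on log2 fold described that relation. The excess of a peak is its log2 −log10 p minus the curve. Both columns come from the same pair of numbers, the pileup and the background level. MACS2's form takes fold as pileup plus 1 over background plus 1, and p as the chance of more reads than the pileup. Solving these for each peak gave a whole-number pileup, within 0.02, for 100% of peaks in each list. At a given fold, −log10 p therefore rises with the background level. A peak above the curve has a higher level than the curve implies at that fold.

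The background level had a lowest value, or floor, in each list: 14.3 reads for H3K27ac, 5.17 for H3K4me1 and 20.6 for H3K4me3. Levels are given below as multiples of that floor, whose list medians were 2.13, 1.66 and 2.77. Whether the level was taken from the control libraries is not given in the sources used here. The lists may share these libraries, so values that match between marks are not independent.

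**Figure D3:**
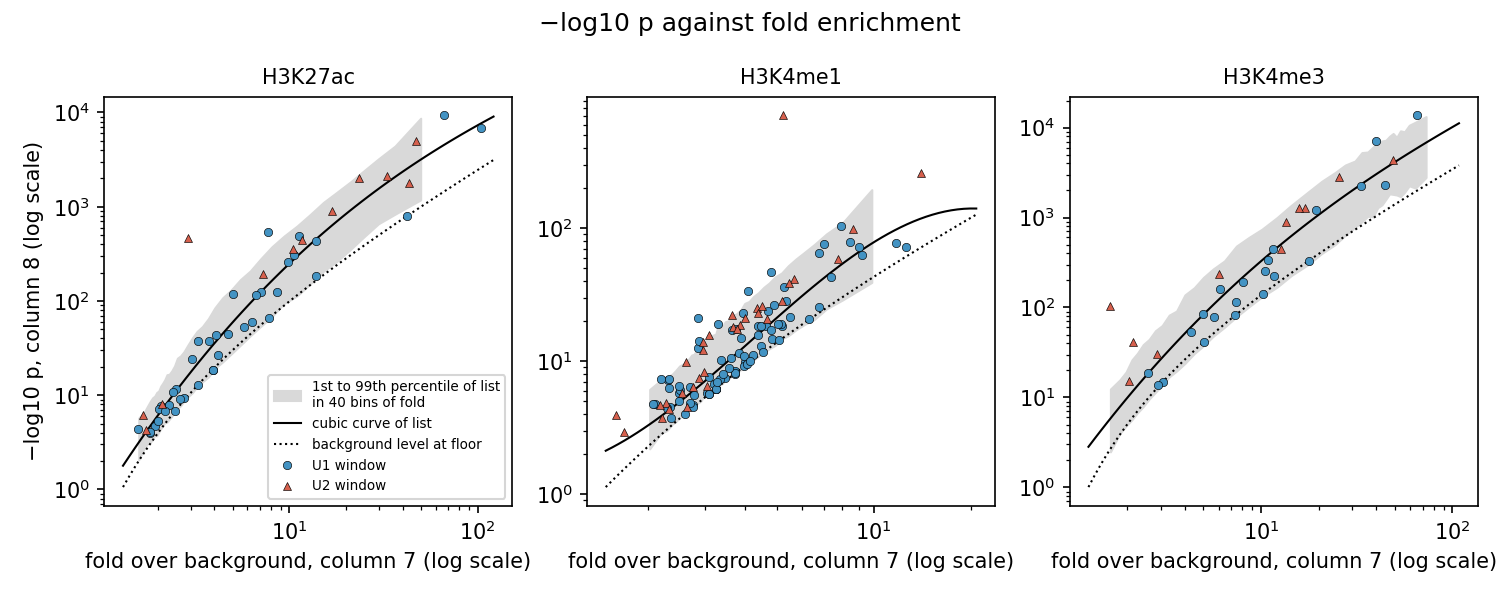
−log10 p (y axis, log scale) against fold over background (x axis, log scale), 1 panel per mark. Grey is the span from the 1st to the 99th percentile of the list, the black line its cubic curve, the dotted line the value at the floor of the background level; circles are U1 peaks and triangles U2 peaks. In each panel 1 triangle lies far above the grey span, at a fold of 2.91 (H3K27ac), 5.25 (H3K4me1) or 1.62 (H3K4me3); most other triangles lie above the black line.

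In the U2 window 11 of 12 H3K27ac peaks lay above the curve (91.7%; whole list 48.2%), as did 29 of 32 H3K4me1 peaks (90.6%; whole list 45.0%) and 10 of 11 H3K4me3 peaks (90.9%; whole list 52.5%). The median excess was 0.46, 0.58 and 0.65 log2 units. The median background level was 3.94 times the floor for H3K27ac, 2.90 times for H3K4me1 and 4.35 times for H3K4me3. No U2 peak lay at the floor, where 2.46% of the H3K27ac list, 7.94% of the H3K4me1 list and 3.25% of the H3K4me3 list did. Within 1 Mb on either side of the window the share at the floor was also 0% for each mark.

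The chromosome around the U2 window was also high. Within 1 Mb on either side, 88.8% of H3K27ac peaks, 86.7% of H3K4me1 peaks and 87.0% of H3K4me3 peaks lay above the curve. On the rest of chromosome 17 the shares were 68.1%, 62.2% and 70.5%. The share above the curve in the U2 window was thus close to that of its flanks. Background medians in the flanks were 2.90, 2.44 and 3.99 times the floor, lower than in the window for each mark.

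At chr17:41400739-41401189, H3K27ac had a −log10 p of 462.7 at a fold of 2.91, where the curve gives 16.2. The pileup was 2575 reads (exact 95% Poisson interval 2476 to 2676, counting error only) over a background of 885 reads, 61.8 times the floor. That background was the highest of all 66513 peaks, 5.79 times the next. Both the pileup and the background were large there, and their ratio was below the list median of 3.15.

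H3K4me1 also had a large pileup and background, at chr17:41399854-41401195, but with a fold above the list median. Its −log10 p of 710.0 was the highest of 182592 peaks, the next being 277.3, while its fold of 5.25 stood at percentile 82.0. The curve gives 23.5 at that fold. The pileup was 1914 reads (1829 to 2002) and the background 363.6 reads, 70.4 times the floor and 8.55 times the next highest level of the list. The next highest belonged to chr17:41395710-41396084, also in the U2 window, whose fold was 1.58.

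H3K4me3 at chr17:41400748-41401173 had a fold of 1.62, percentile 1.17 of its list, with a −log10 p of 104.3 where the curve gives 5.74. Its pileup was 2349 reads (2255 to 2446) over a background of 1448 reads, 70.3 times the floor. The next highest background of that list lay close by, at chr17:41401768-41402169, with a fold of 2.15, a background 8.85 times the floor and no other mark. For all 3 marks, then, the highest background level of the list was at the same place in the U2 window, and excesses of 4.83, 4.92 and 4.18 log2 units were the highest of their lists. How reads from repeated copies were placed was not tested.

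The U2 peak lowest against its curve for H3K27ac was chr17:41436611-41440073, with an excess of -0.56 at a fold of 43.3. It was 2.27 times the floor, where the H3K27ac peak of chr17:41444485-41448092, of similar fold, was 5.86 times. The −log10 p values were 1778 and 5036. The lowest excess was -0.26 for H3K4me1, at chr17:41419036-41419411, and -0.20 for H3K4me3, at chr17:41438735-41439799.

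The U1 window did not share the U2 pattern as a whole. There 16 of 39 H3K27ac peaks (41.0%; whole list 48.2%), 38 of 83 H3K4me1 peaks (45.8%; whole list 45.0%) and 6 of 22 H3K4me3 peaks (27.3%; whole list 52.5%) lay above the curve. The H3K4me1 share was thus near that of its list, and the H3K4me3 share was lower than in its list. The median excess was -0.19, -0.12 and -0.34. Within 1 Mb on either side the shares above the curve were 40.8%, 32.8% and 46.7%. On the rest of chromosome 1 they were 36.1%, 32.4% and 43.9%. The H3K4me1 share of the window was thus above both, and the H3K4me3 share below both. Background medians were 1.75, 1.58 and 1.89 times the floor, below the list median for each mark. Those of the flanks, 1.87, 1.54 and 2.65 times the floor, were also below the list medians. Against its flanks, the window was thus lower for H3K27ac and H3K4me3 and slightly higher for H3K4me1.

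**Figure D4:**
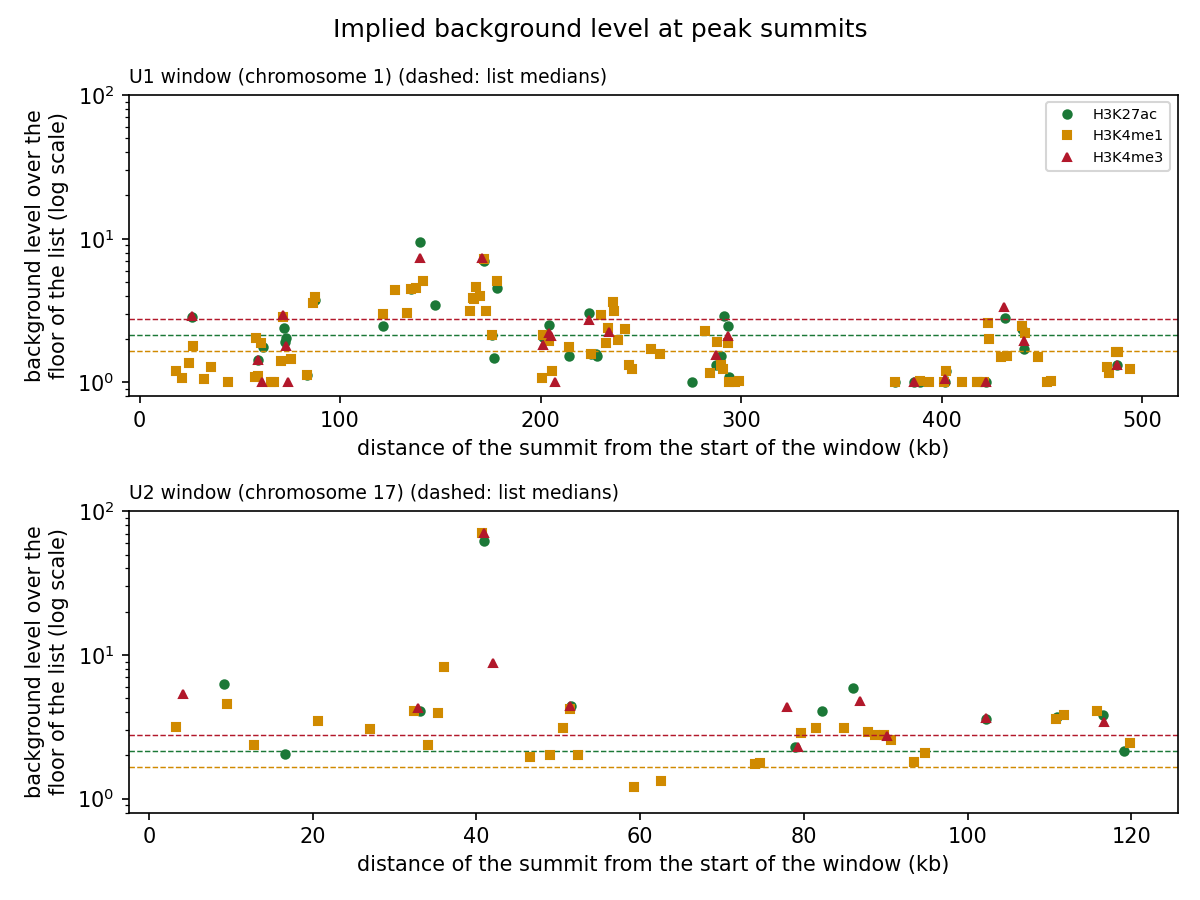
Implied background level over the floor of its list (y axis, log scale) against distance from the window start in kb (x axis), for the peaks of the U1 and U2 windows by mark; dashed lines are list medians. The U2 window has 1 place where the 3 marks stand between 61.8 and 70.4 times the floor, and the U1 window has its highest levels between 100 and 200 kb.

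Levels in the U1 window spread to both ends of the range. At the floor were 6 of 39 H3K27ac peaks (15.4%; whole list 2.46%), 12 of 83 H3K4me1 peaks (14.5%; whole list 7.94%) and 5 of 22 H3K4me3 peaks (22.7%; whole list 3.25%). In the flanks the shares at the floor were 0.833%, 8.36% and 0%. Above the 90th percentile of the list by background (10.0% of each list) were 5 of 39 H3K27ac peaks, 20 of 83 H3K4me1 peaks and 2 of 22 H3K4me3 peaks. The corresponding U2 counts were 7 of 12, 19 of 32 and 6 of 11. Within 1 Mb on either side of the U2 window these shares were 31.2%, 33.2% and 38.0%. On the rest of chromosome 17 they were 18.8%, 19.6% and 20.7%, so the surroundings were also above 10.0%.

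High levels gathered in a single stretch of the U1 window, between 100 and 200 kb from its start, limits that were set after the values were seen. There, 4 of 8 H3K27ac peaks, 14 of 15 H3K4me1 peaks and 2 of 2 H3K4me3 peaks were above that percentile, and none was at the floor. In the rest of the window the counts were 1 of 31, 6 of 68 and 0 of 20, and all peaks at the floor lay there. Between 350 and 400 kb, 3 of 3 H3K27ac peaks, 2 of 3 H3K4me1 peaks and 1 of 1 H3K4me3 peak were at the floor.

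Regions with all 3 marks stood on opposite sides of the curve within this window. The H3K27ac peak chr1:16939018-16940586 had a pileup of 1052 reads at a background of 134.7, 9.41 times the floor, and its −log10 p was 543.3 where the curve gives 150.7. Its excess of 1.85 ranked second in the list. The H3K4me3 peak of that region, chr1:16938217-16940713, stood 7.35 times above the floor with an excess of 1.25, the highest of its mark in the window. For H3K4me1 the highest excess was 1.72, at chr1:16971395-16971961, 7.24 times the floor.

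At the other extreme, the H3K27ac peak chr1:17221703-17223930 had a fold of 42.0 at the floor. Its −log10 p of 791.3 compares with 2513 on the curve, an excess of -1.67 that was among the lowest of 66513, where only 2 peaks were lower. The H3K4me3 peak there, chr1:17221484-17223842, had −log10 p 330.5 where the curve gives 882.8, with an excess of -1.42, and was also at the floor. For H3K4me1 the lowest excess was -0.74, at chr1:17209311-17211084. The strongest H3K27ac peak of the window, chr1:17229488-17232674, lay between these, with a pileup of 4294 reads, 2.82 times the floor and an excess of -0.15.

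Where an H3K27ac summit of either window lay within 300 bp of another mark's summit, the background levels over the floor were close. Their Spearman correlation was 0.98 with H3K4me1 (20 positions) and 0.97 with H3K4me3 (18 positions). The median ratio, taken either way, was 1.05 and 1.13. At chr1:16883322-16884273 the H3K27ac and H3K4me1 summits coincided, and both levels were 1.13 times the floor. Levels taken from a common background would be close at nearby summits by construction. The closeness is therefore not independent agreement between marks, and its source was not tested. Over whole regions, where summits can lie further apart, levels were not always high or low together. At chr1:16937704-16941449 H3K27ac stood at 9.41 times its floor and H3K4me3 at 7.35, and the 2 H3K4me1 peaks at 4.51 and 5.09. At chr1:16968357-16973498 H3K27ac stood at 6.96 and H3K4me3 at 7.34, and the 3 H3K4me1 peaks at 3.98, 7.24 and 3.12. All of these levels were above the list medians. At chr1:17220693-17223994 H3K27ac and H3K4me3 were at the floor, as was the H3K4me1 peak chr1:17220693-17221570, which did not overlap the H3K27ac peak. The other 2 H3K4me1 peaks there, chr1:17222907-17223479 and chr1:17223560-17223994, stood at 2.61 and 2.01 times their floor, above the list median of 1.66. The summits of the marks in a region need not be at the same base.

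At the limits of the windows, the H3K27ac peaks on either side of the lower U1 limit were chr1:16766426-16768239 outside, with fold 9.17, and chr1:16824471-16826823 inside, with fold 13.9. At the upper U1 limit they were chr1:17287171-17287939 inside, with fold 6.38, and chr1:17337901-17338398 outside, with fold 2.80. For U2 the H3K27ac peaks were chr17:41330349-41330691 outside, with fold 1.67, and chr17:41362601-41371940 inside, with fold 23.5. At the upper U2 limit they were chr17:41478870-41479501 inside, with fold 2.11, and chr17:41486550-41487823 outside, with fold 4.22.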

How the data were processed

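Peaks of pooled HepG2 ChIP-seq replicates were called with MACS2 on hg19, per the submitters' processing notes. The version, the settings, the handling of reads with several positions and the use of the control are not given in the sources used here. The deposited narrowPeak lists hold the fold enrichment (a ratio), the −log10 p and −log10 q values, a score and, as another value, the summit offset. No deposited column was of a sample outside the series (0). Raw reads and counts per library were not analysed here.

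The 199 member peaks came from 273822. The pileup and background of each peak on chromosomes 1 to 22 and X were solved from the deposited fold and −log10 p, with a pseudocount of 1. The procedure was tested on simulated data, 2000 peaks per list, and recovered the pileup in 100% of them. Floors were taken within 0.1%. The curve was a polynomial of degree 3. Merged regions share at least 1 bp. Intervals at 95% are Wilson for shares and exact Poisson for pileups; they cover counting error only, since duplicate reads are not independent molecules. Python 3.11.15, numpy 2.4.6, scipy 1.17.1, pandas 2.3.3 and matplotlib 3.10.9 were used.

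The windows, members and lists were chosen with earlier results of these data known. Named peaks are, per window and mark, the highest fold, the widest, and the lowest and highest excess, and the regions with all 3 marks up to 12 per window, by H3K27ac fold. Peaks at the limits, the longest stretches without a peak, the runner-up backgrounds, further peaks of regions with all 3 marks and the regions without H3K4me3 were added after their values were seen. Positions of single snRNA genes, other snRNA genes and motifs were planned only with a GRCh37 annotation or promoter sequences and were not run. Alternatives were another q or fold threshold, overlap rule, window limits, curve, column and Poisson form.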

Additional observations from a re-analysis of the deposited data

How the results depend on the processing

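Over 25 results and 94 alternative values, 77 stayed within the set limits and 17 moved. No other label was given, so these counts say nothing on reversals. The limits were wide: 8 H3K27ac peaks in the U2 window with the stronger 50% of the list, against 12, counted as within them. For shares above the curve the labels followed the Wilson interval of the main value, 62.3 to 98.4% for H3K4me3 in the U2 window. A value within the limits need not be close to the main one. Keeping the stronger 50% of each list by fold left 24 H3K27ac, 47 H3K4me1 and 6 H3K4me3 peaks in the U1 window, and 16 H3K4me1 and 5 H3K4me3 peaks in the U2 window. Windows 20 kb shorter at each end left 6 H3K27ac peaks in the U2 window. Joining peaks within 1000 bp gave 48 U1 regions and 17 U2 regions. With folds above the list median and the curve refitted, 100% of 16 H3K4me1 and 100% of 5 H3K4me3 peaks in the U2 window lay above the curve, and 50% of 6 H3K4me3 peaks in the U1 window. Over the alternatives run, the U2 shares above the curve ranged from 81.2% to 100%. Without the highest-background peak, an alternative chosen after seeing the data, the U2 shares were 90.9%, 90.3% and 90% for H3K27ac, H3K4me1 and H3K4me3, and the background medians 3.83, 2.86 and 4.30 times the floor. Both other forms of the inversion gave whole-number pileups in few peaks: 3.20%, 4.63% and 2.04% with the tail including the pileup itself, and 3.83%, 3.49% and 4.15% without the pseudocount. No paired analysis was possible because the lists pool the replicates and carry no replicate numbers, and leaving out a replicate could not be run for the same reason. Depth per library is unknown, so what depth limits cannot be given.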
